A study of Noccaea goesingensis with 12 samples.

Results

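The genes described here supply sulfur-containing and histidine ligands for metals in roots of *Noccaea goesingensis*, and they were measured by RNA-seq in 2 ecotypes, the metallicolous TM from serpentinite and the non-metallicolous NTM from dolomite. The set is a fixed list of 59 *A. thaliana* identifiers in 11 named classes: sulfate transporters, APS, APR, SIR, APK, serine acetyltransferases, O-acetylserine thiol lyases, glutathione and phytochelatin synthesis, metallothioneins, the ABCC1/2 pair and histidine biosynthesis, beside 6 identifiers under no named class. Of the 59 members, 21 were found among the 5273 genes of the deposited tables. How many genes the authors compared in all is not given there. Whether members, or any class of them, were listed more often than other genes therefore cannot be told. The 12 root libraries fell into 4 groups, TM Ni (2 libraries), NTM Ni (3), TM control (4) and NTM control (3) by their labels, each made from RNA of 5 plants per sample. The methods give 3 samples per group instead, and the number in 1 TM Ni title is not clearly written, so which libraries each TM value pools was not settled. The Ni groups were watered with a nickel sulfate solution for 3 weeks, while the controls received the same nutrient solution without Ni, and all plants were raised from seed of wild populations. The labels give no Ni dose, and they describe a substrate from a mine dump where the paper describes sand and perlite. Each ecotype stood for 1 population, so that ecotype and population cannot be told apart.

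Plants take sulfate up through membrane transporters and activate it with ATP sulfurylase (APS), which forms adenosine 5′-phosphosulfate. This intermediate is either reduced by APS reductase (APR) and sulfite reductase (SIR) to sulfide, or phosphorylated by APS kinase (APK) to the sulfate donor used for glucosinolates and other sulfated compounds. Serine acetyltransferases and O-acetylserine thiol lyases then build cysteine, the precursor of glutathione, which in turn is polymerised to phytochelatins. Thiols of glutathione, phytochelatins and the cysteine-rich metallothioneins bind metals, ABCC transporters carry thiol conjugates into the vacuole, and free histidine is a well-known chelator of Ni in hyperaccumulators.

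The deposited tables give 1 expression value per group for each gene, in FPKM (fragments scaled to gene length and library size) as the methods call it, although the columns are headed as TPM. Without replicate values no error, interval or test can be given for any difference below, and all of them compare group values. Only genes that the authors' comparison of TM with NTM put below 0.05 in *p*-value are listed, 4460 without Ni and 1944 with Ni, so every listed gene was selected for a difference between the ecotypes. An unlisted member either missed this limit or was left out of the comparison, and its level is not given here. Ratios are given as log2 of TM over NTM with 0.1 FPKM added to each value. Library depth cannot be read from the tables, and the alignment statistics of the study show 1 of the 3 NTM Ni libraries to be far shallower than the others, which cannot be left out of a group value. The files hold identifiers without gene symbols, hence the members are named by identifier and class.

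Among the members, 16 were listed without Ni and 8 with Ni, 3 of them in both states. Without Ni, 10 members had the higher value in TM roots and 6 the lower one, beside 44.5% of all listed genes with the higher and 55.5% with the lower value in TM. With Ni, 4 members were higher and 4 lower in TM, beside 46.2% of all listed genes higher and 53.8% lower in TM. Members differed by less than the typical listed gene, with a median absolute log2 ratio of 0.79 for members and 1.12 for all genes without Ni, and of 1.07 and 1.46 with Ni. Listed members also stood at higher levels. Their median was 56.6 FPKM in TM control roots, against 15.4 FPKM for all listed genes, and 47.2 against 17.2 FPKM in NTM control roots. The part of level in the size of the ratios was not tested. The signed median was 0.68 for members and -0.71 for all listed genes without Ni, and 0.21 and -0.91 with Ni. Few members passed 1 on the log2 scale without Ni: 3 of 16 were above 1, where 27.4% of all listed genes were, and 2 below -1, where 32.8% of all listed genes were. With Ni, 4 of 8 members were above 1 and 0 below -1, beside 39.4% and 46.8% of all listed genes. When the ratios without Ni were centred on the median of the listed genes, 10 members were above 1 and 1 below -1. No listed gene without Ni had a ratio between -0.5 and 0.5, and centring takes the median of -0.71 from each ratio. All genes higher in TM, 44.5% of those listed, are thus above 1 after centring. The 10 members above 1 are the same 10 that were higher in TM as deposited. When the ratios of each state were centred in this way, some members lower in TM as deposited lay within 0.15 of 0. These were 4 of 6 without Ni and 4 of 4 with Ni. The listed genes were all selected for a difference, so their median does not stand for unchanged genes. Centring thus cannot tell whether these members were lower in TM, and their direction is given as deposited only.

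**Figure D1:**
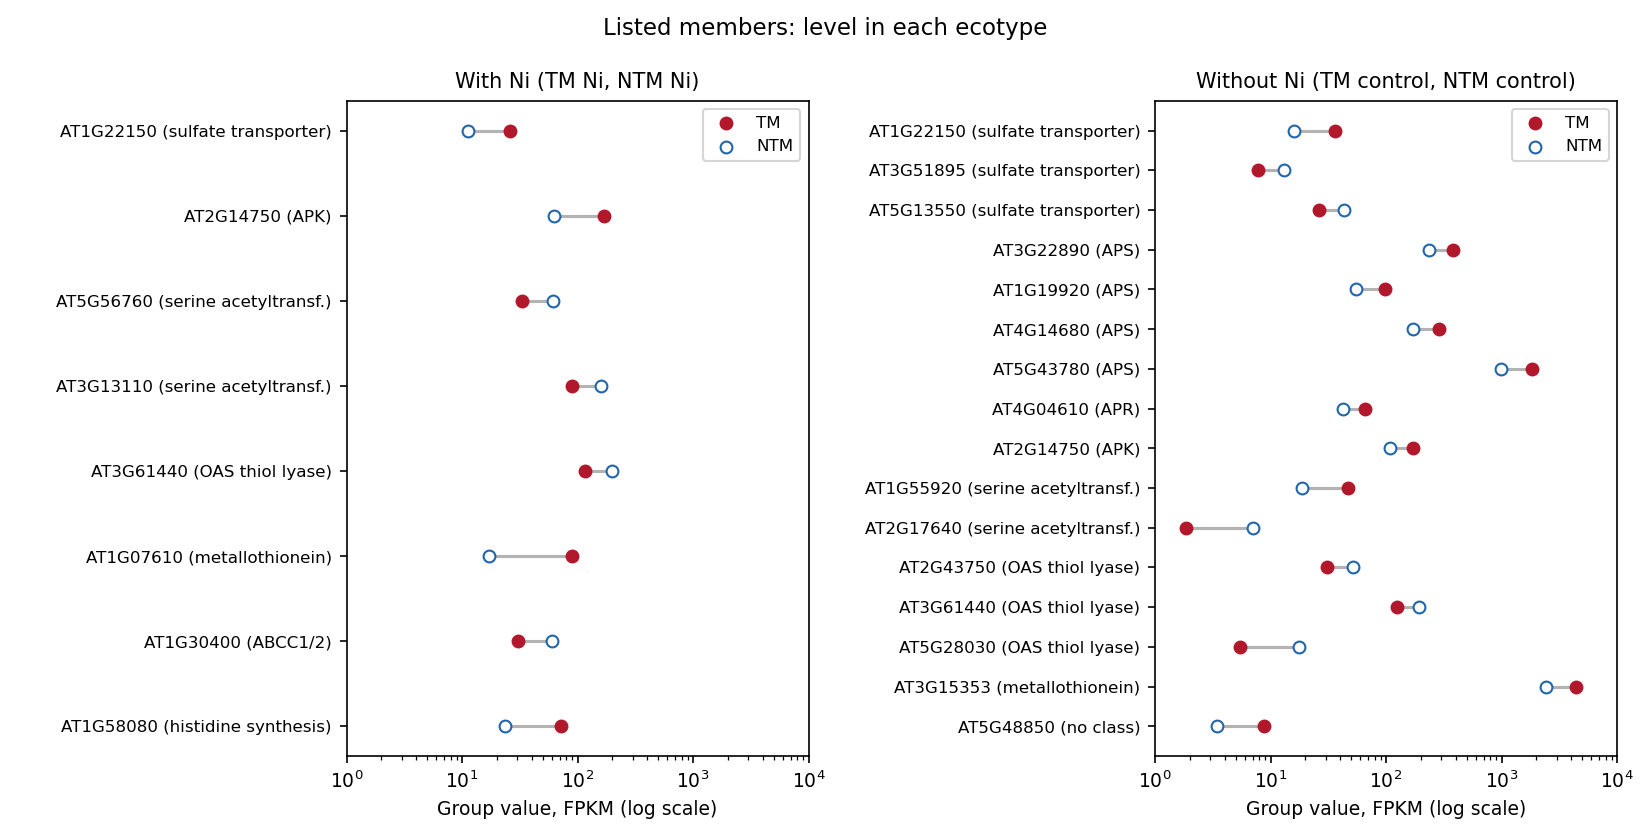
Group value in FPKM (log scale) of each listed member, with Ni (left, 8 members) and without Ni (right, 16 members), filled points for TM and open points for NTM, 1 value per group. All 4 APS genes lie further right in TM roots without Ni. The 3 listed genes placed in the O-acetylserine thiol lyase class lie further left in values as deposited, 2 of them by about the median ratio of the listed genes (centred ratios of -0.03 and 0.05). The class is that of the definition of the set, and the reaction of each enzyme is not given by the data.

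Of the 12 sulfate transporter genes in the set, 3 were listed. The data do not give the membrane or cells in which each transporter acts, so these values are not a measure of uptake. AT1G22150, on chromosome 1 from 7818361 to 7821344 of TAIR10, was listed in both states and was higher in TM each time. It had 26.0 FPKM in TM Ni roots and 11.3 FPKM in NTM Ni roots, and 36.1 FPKM in TM control roots and 15.8 FPKM in NTM control roots. The log2 ratio of TM over NTM was 1.19 with Ni and 1.18 without Ni, hence the gap between the ecotypes was of the same size in both tables. The other 2 transporters were listed only without Ni and had the lower value in TM roots. AT3G51895 (chromosome 3, 19251287 to 19255760) stood at 7.86 FPKM in TM control and 13.0 FPKM in NTM control roots, a log2 ratio of -0.71. AT5G13550 (chromosome 5, 4355276 to 4359552) stood at 26.1 FPKM in TM control and 43.0 FPKM in NTM control roots, a log2 ratio of -0.72. After centring on the median of the listed genes the ratios of both were -0.01. That median comes from genes selected for a difference and does not stand for unchanged genes. Centring thus does not settle whether both were lower, and their lower value in TM is stated as deposited only. The other 9 transporters, AT4G08620, AT1G78000, AT5G10180, AT1G77990, AT4G02700, AT1G23090, AT3G15990, AT5G19600 and AT3G12520, were in neither table.

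ATP sulfurylase was the only class of more than 1 gene that was listed in full, and all 4 of its genes had the higher value in TM control roots. AT5G43780 (chromosome 5, 17588790 to 17591535) was the most abundant, with 1833 FPKM in TM control roots and 992.7 FPKM in NTM control roots. Its value in TM ranked 5 among the 4460 genes listed without Ni, and its value in NTM ranked 19. AT3G22890 (chromosome 3, 8112723 to 8114992) had 380.9 FPKM in TM control and 234.6 FPKM in NTM control roots. AT4G14680 (chromosome 4, 8413288 to 8415391) had 286.6 FPKM in TM control and 171.4 FPKM in NTM control roots. AT1G19920 (chromosome 1, 6914613 to 6916805) was the least abundant, with 98.6 FPKM in TM control and 55.4 FPKM in NTM control roots. These genes lie on 4 chromosomes, and their log2 ratios were close to each other, at 0.88, 0.70, 0.74 and 0.83 in the order given.

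Summed over the 4 APS genes, the values came to 2599 FPKM in TM control and 1454 FPKM in NTM control roots. The make-up of this sum was nearly the same in both ecotypes, with AT5G43780 at 70.5% of it in TM and 68.3% in NTM, and AT1G19920 at 3.79% in TM and 3.81% in NTM. No APS gene was listed with Ni, so whether the gap persisted under Ni is not known from these tables. The 4 genes are similar in sequence, and reads that match more than 1 of them may have been shared among them, which was not tested.

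The steps that use the APS product were listed in part. Of the 3 APR genes, AT4G04610 (chromosome 4, 2325003 to 2327013) was listed without Ni, with 66.0 FPKM in TM control and 42.6 FPKM in NTM control roots and a log2 ratio of 0.63. The APR genes AT1G62180 and AT4G21990 and the SIR gene AT5G04590 were in neither table. Of the 2 APK genes in the set, AT2G14750 (chromosome 2, 6314032 to 6315766) was listed in both states. It had 170.1 FPKM in TM Ni roots and 62.0 FPKM in NTM Ni roots, and 171.0 FPKM in TM control roots and 108.1 FPKM in NTM control roots. The log2 ratio of TM over NTM was 1.45 with Ni and 0.66 without Ni, and this difference between the states was not tested. AT4G39940, the other APK gene of the set, was in neither table. Paralogues of the members outside the set were looked up apart from it, so these values do not describe a whole family. In that list of sulfur status and paralogues, 1 gene was higher and 1 lower in TM without Ni. With Ni, 0 were higher and 2 lower, among them AT3G03900 with a log2 ratio of -1.92. The list does not give the class of each gene.

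Serine acetyltransferase genes differed in both directions, and the listed genes of the O-acetylserine thiol lyase class were lower in TM as deposited. These classes follow the definition of the set. The data do not give the reaction of each enzyme, so the values are not a measure of cysteine synthesis. Of 5 serine acetyltransferase genes, 4 were listed, each in 1 state. AT1G55920 (chromosome 1, 20912116 to 20913447) had 47.1 FPKM in TM control and 18.7 FPKM in NTM control roots, a log2 ratio of 1.32. AT2G17640 (chromosome 2, 7668078 to 7670495) had 1.85 FPKM in TM control and 7.01 FPKM in NTM control roots, a log2 ratio of -1.87. This was the lowest ratio of any listed member with 0.1 FPKM added, at a low level in both ecotypes. With 1 FPKM added the ratio of AT2G17640 was -1.49, and that of AT5G28030 was lower at -1.53. With Ni, AT3G13110 (chromosome 3, 4214617 to 4216302) had 90.4 FPKM in TM Ni and 161.2 FPKM in NTM Ni roots. AT5G56760 (chromosome 5, 22961309 to 22962660) had 33.3 FPKM in TM Ni and 61.9 FPKM in NTM Ni roots. The log2 ratios of these 2 genes, -0.83 and -0.89, were negative as deposited and 0.07 and 0.01 after centring on the median of the listed genes. The fifth gene, AT4G35640, was in neither table.

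Of 5 genes in the O-acetylserine thiol lyase class, 3 were listed without Ni. All 3 had the lower value in TM as deposited, as had 55.5% of all listed genes. AT5G28030 (chromosome 5, 10030406 to 10032451) had 5.49 FPKM in TM control and 17.7 FPKM in NTM control roots, a log2 ratio of -1.67. AT2G43750 (chromosome 2, 18128529 to 18132637) had 30.8 FPKM in TM control and 51.4 FPKM in NTM control roots, a log2 ratio of -0.74. AT3G61440 (chromosome 3, 22735663 to 22738126) was listed in both states and is the most abundant of the 3. It had 116.7 FPKM in TM Ni and 197.8 FPKM in NTM Ni roots, and 123.4 FPKM in TM control and 195.0 FPKM in NTM control roots. Its log2 ratio of TM over NTM was -0.76 with Ni and -0.66 without Ni, but 0.15 and 0.05 after centring on the median of the listed genes. Under this centring AT2G43750 stood at -0.03 and AT5G28030 at -0.97. The median of genes selected for a difference does not stand for unchanged genes. Centring thus does not settle which of the 3 were lower in TM. AT4G14880 and AT3G59760 were in neither table.

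**Figure D2:**
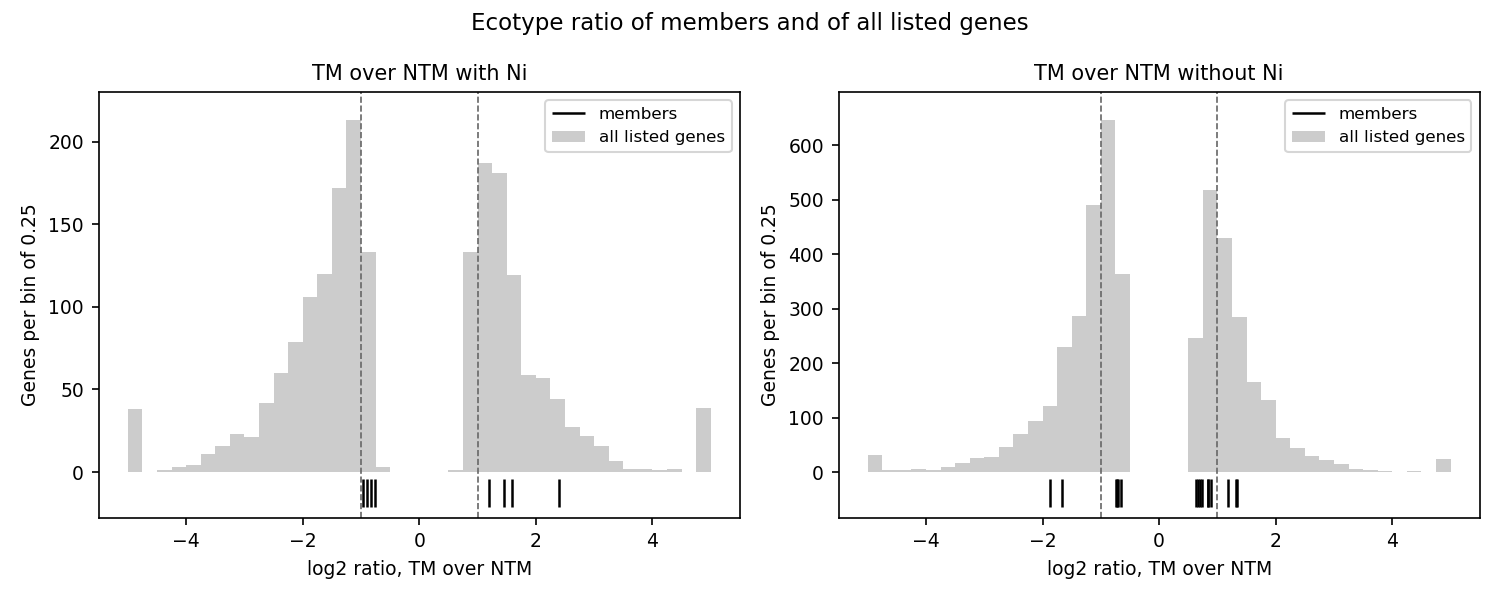
Histograms of the log2 ratio of TM over NTM for all listed genes (grey, genes per bin of 0.25, values beyond 5 in the end bins) with the members as black ticks, with Ni (left, 1944 genes and 8 members) and without Ni (right, 4460 genes and 16 members). Dashed lines mark 1 and -1; the 4 members lower in TM with Ni lie between -0.76 and -0.96, close to the inner edge of the histogram, and between -0.05 and 0.15 after centring on the median.

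The enzymes that make glutathione and phytochelatins were not listed. None of the 4 genes of this class (AT4G23100, AT5G27380, AT5G44070 and AT1G03980) was in either table, and no ecotype difference can be stated for them. Among the 6 members under no named class only AT5G48850 (chromosome 5, 19805437 to 19807759) was listed, without Ni, with 8.76 FPKM in TM control and 3.42 FPKM in NTM control roots. Its log2 ratio of 1.33 was the highest of a listed member without Ni with 0.1 FPKM added, and 690 of the 4460 genes had a higher one. With 1 FPKM added the ratio of AT5G48850 was 1.14, and that of AT1G55920 was higher at 1.28. AT3G24170, AT3G54660, AT3G49580, AT5G24660 and AT5G26220 were in neither table.

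Metallothioneins, small cysteine-rich proteins that bind metals directly, held both the most abundant and the one with the highest ratio of the 21 listed members. AT3G15353 (chromosome 3, 5179413 to 5181586) had 4373 FPKM in TM control and 2449 FPKM in NTM control roots, a log2 ratio of 0.84. In both ecotypes its level ranked 2 among the 4460 genes listed without Ni. AT1G07610 (chromosome 1, 2341542 to 2342123) was listed with Ni only, with 90.1 FPKM in TM Ni and 17.0 FPKM in NTM Ni roots. Its log2 ratio was 2.40, a 5.31-fold higher value in TM, and 134 of the 1944 genes listed with Ni had a higher ratio. The locus of AT1G07610, at 582 bp, was the shortest of the listed members, and metallothionein genes resemble each other, so reads may have been shared with a copy that is not listed, which was not tested. The other 3 metallothionein genes, AT1G07600, AT3G09390 and AT5G02380, were in neither table.

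For vacuolar transport, AT1G30400 (chromosome 1, 10727638 to 10738055) of the ABCC1/2 pair was listed with Ni, where it had 30.7 FPKM in TM and 59.7 FPKM in NTM roots, a log2 ratio of -0.96 as deposited and -0.05 after centring. The other gene of the pair, AT2G34660, was in neither table. Histidine biosynthesis was represented by 1 of 10 genes. AT1G58080 (chromosome 1, 21504314 to 21507540) had 71.5 FPKM in TM Ni and 23.8 FPKM in NTM Ni roots. The log2 ratio was 1.58, which 355 of the 1944 genes listed with Ni exceeded. AT1G09795, AT1G31860, AT2G36230, AT4G26900, AT3G22425, AT4G14910, AT5G10330, AT1G71920 and AT5G63890, the other 9 genes of the class, were in neither table.

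Taking the listed members by level, without Ni they ranged between 1.85 and 4373 FPKM in TM control roots with a median of 56.6, and between 3.42 and 2449 FPKM in NTM control roots with a median of 47.2. All listed genes had a median of 15.4 FPKM in TM control and 17.2 FPKM in NTM control roots. With Ni, the 8 listed members ranged between 26.0 and 170.1 FPKM in TM Ni roots and between 11.3 and 197.8 FPKM in NTM Ni roots. No member stood at 0 in any group, and the locus of none of the 21 overlapped that of another listed gene.

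A value in all 4 groups was available for AT1G22150, AT2G14750 and AT3G61440, for which Ni and control could be set side by side within an ecotype. The ratios of Ni over control rest on the 1131 genes in both tables, and whether both tables were normalized together was not settled. None of the 3 members passed 1 on the log2 scale in either ecotype, beside 2.56% of these genes above 1 and 2.03% below -1 in TM, and 2.48% above 1 and 5.66% below -1 in NTM. The transporter AT1G22150 had a log2 ratio of Ni over control of -0.47 in TM and -0.48 in NTM. For the APK gene AT2G14750 the ratio was -0.01 in TM and -0.80 in NTM, and 98 of the 1131 genes had a lower ratio in NTM. AT3G61440, of the O-acetylserine thiol lyase class, had a ratio of -0.08 in TM and 0.02 in NTM. Over all 1131 genes, the range from the 5th to the 95th percentile was -0.69 to 0.68 in TM and -1.08 to 0.78 in NTM, and the 6 ratios of the members lay within it. The differences between the ecotypes in these Ni ratios were not tested, since each group has 1 value.

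**Figure D3:**
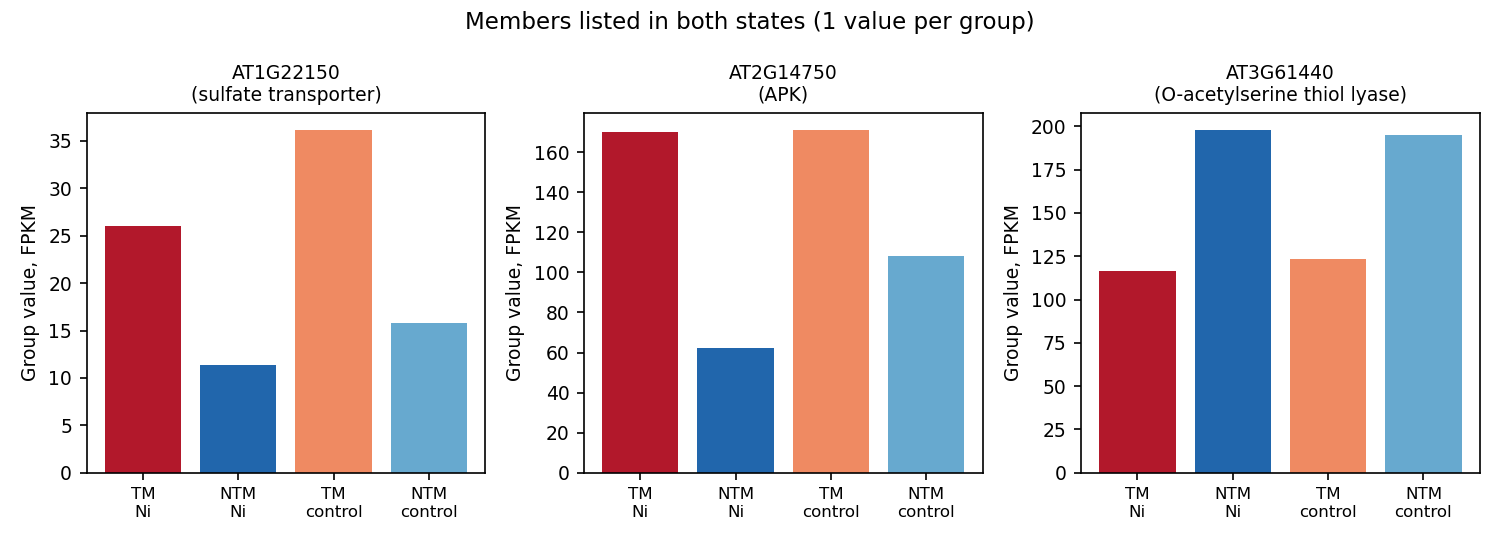
Group values in FPKM of the 3 members listed in both states, as bars for TM Ni, NTM Ni, TM control and NTM control (1 value per group, no error bars). AT2G14750 has 170.1 and 171.0 FPKM in the TM groups with and without Ni, and its lowest value, 62.0 FPKM, in NTM Ni.

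Beyond the members, 40 other genes of sulfur metabolism had been listed by identifier under the headings methionine and its cycle, glutathione turnover and transport, and sulfur status and paralogues of the members, and 11 of them were in the tables. Without Ni, 9 were listed, 4 higher and 5 lower in TM, beside 44.5% and 55.5% of all listed genes. Of these 9, 2 were above 1 and 3 below -1 on the log2 scale, beside 27.4% and 32.8% of all listed genes. With Ni, 3 were listed, 1 above 1 and 2 below -1, beside 39.4% and 46.8% of all listed genes. In the methionine list (15 genes, 4 listed without Ni) AT1G64660 was higher in TM in both states, with 48.5 FPKM in TM Ni and 20.7 FPKM in NTM Ni roots, and 48.7 FPKM in TM control and 17.2 FPKM in NTM control roots. AT3G22740 of the same list had 12.1 FPKM in TM control and 5.35 FPKM in NTM control roots. AT3G03780, also of this list, had 424.5 FPKM in TM control and 948.5 FPKM in NTM control roots, a log2 ratio of -1.16. Genes of the methionine list therefore differed in both directions.

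In the list of glutathione turnover and transport (10 genes, 3 listed without Ni and 0 with Ni) AT4G39650 had 3.91 FPKM in TM control and 8.61 FPKM in NTM control roots. In the list of sulfur status and paralogues (15 genes, 2 listed in each state) AT5G28020 had 8.55 FPKM in TM control and 26.2 FPKM in NTM control roots, a log2 ratio of -1.60. With Ni, AT3G03900 had 10.1 FPKM in TM Ni and 38.6 FPKM in NTM Ni roots, and AT5G40850 had 13.8 FPKM in TM Ni and 32.6 FPKM in NTM Ni roots.

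Markers of root and shoot were checked as far as the tables allow. Of 7 root markers 1 was listed without Ni, at 10.8 FPKM in TM and 18.5 FPKM in NTM roots, and 1 with Ni, *IRT1* (AT4G19690), at 346.4 FPKM in TM and 38.1 FPKM in NTM roots. Of 6 photosynthesis genes fixed as shoot markers, 2 were listed without Ni, summing to 35.4 FPKM in TM control and 125.8 FPKM in NTM control roots, and 1 with Ni, at 12.5 FPKM in TM Ni and 35.9 FPKM in NTM Ni roots. No listed marker was at 0. The listed shoot markers thus had higher values in the NTM groups, as had the root marker listed without Ni. *IRT1* with Ni was higher in TM. Like all listed genes, these markers were selected for a difference between the ecotypes, and the levels of the unlisted markers are not given. The part of the shoot markers in the ecotype differences of the members was not tested. In RNA of whole roots, fewer cells of a type and less RNA per cell cannot be told apart.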

How the data were processed

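The authors trimmed the reads with cutadapt 1.8.1, aligned them with HISAT2 2.1.0 to the *A. thaliana* genome (TAIR10 per the processing notes) and ran Cuffdiff of Cufflinks 2.2.1. They deposited FPKM values after geometric normalization, 1 per group, in 1 table without and 1 with Ni. The methods describe scaling across all libraries, and whether this spanned both tables was not settled. The single-group files are headed TPM, which was not settled. The authors computed the deposited p-value of TM against NTM with Cuffdiff. It and the deposited log2 column are their own comparison and were not used, except to see that 0 listed genes were at or above a *p*-value of 0.05. The single-group and comparison files differed in 0 values.

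Groups came from the sample titles. Log2 ratios were computed after adding 0.1 FPKM, counted past 1 on the log2 scale, and checked on simulated data. No per-library values were used, so no test was run. Other settings were a pseudocount of 1 FPKM, thresholds of 0.5 and 2, at least 1 FPKM in both groups, and centring on the median ratio. Locus starts are printed counting from 1. Classes of members follow the definition of the set, which orders identifiers by class. All listed members are named, as are other pathway genes past 1 on the log2 scale. The members and lists were chosen with earlier results of these data known. Reads of *N. goesingensis* were aligned to another species, so a level also depends on how well each gene aligns. Python 3.11.15, numpy 2.4.6, pandas 2.3.3 and matplotlib 3.10.9 were used.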

Additional observations from a re-analysis of the deposited data

How the results depend on the processing

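A pseudocount of 1 FPKM or a minimum of 1 FPKM in both groups left all 4 counts of members past the threshold as they were, and a pseudocount of 1 changed the sign of 0 of the 30 member ratios. By construction the threshold moved the counts most. At 0.5 on the log2 scale, 16 members passed without Ni, 8 with Ni and 1 for Ni in NTM (AT2G14750), in place of 5, 4 and 0, and at 2, 0 passed without Ni and 1 with Ni. No listed gene had a ratio of TM over NTM between -0.5 and 0.5 in either state. All listed genes, members or not, thus pass 0.5, and the counts of 16 and 8 say nothing particular about the members. Centring on the median ratio of the listed genes (-0.71 without Ni, -0.91 with Ni) gave 11 members without Ni and moved 24 of the 30 ratios by more than 1.5-fold. Of these 11, 10 were above 1, as was every listed gene higher in TM once centred. Centring changed the sign of 6, and brought 4 more (AT3G51895, AT5G13550 and AT2G43750 without Ni, AT1G30400 with Ni) to within 0.05 of 0. These lists hold only genes that differ, more of them lower in TM, so their median does not stand for unchanged genes. The effect of centring on single ratios was examined after the data were seen. No replicate could be left out in turn. No paired analysis was possible because the tables hold 1 value per group. The NTM Ni values pool 1 library far shallower than the others. By their labels 2 libraries belong to TM Ni, and which libraries the TM values pool was not settled.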

Other observations

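Among the listed genes were neighbours on the chromosome that differed in the same direction, singled out after their values were seen. AT5G28030, placed in the O-acetylserine thiol lyase class by the definition of the set, follows AT5G28020 after 1825 bases. Both had the lower value in TM control roots, with log2 ratios of -1.67 and -1.60. AT4G39640 and AT4G39650 of the list of glutathione turnover lie 596 bases apart and had log2 ratios of -0.80 and -1.12. Whether reads were shared between such neighbours was not tested.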
